A study of Homo sapiens with 35 samples.

Results

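The genes described here are 10 genes of the lysosome: the V-ATPase subunits ATP6V0D2 and ATP6V0D1, the cathepsin proteases CTSB, CTSD, CTSK, CTSL, CTSS and CTSZ, lysozyme (LYZ), and the lysosomal membrane glycoprotein LAMP1. They were chosen by symbol, and all 10 were found in both deposited count tables, among 59428 gene rows. The list was made with earlier results of these libraries known, and which values entered the choice is not recorded. Counts over the 10 genes are therefore descriptions and carry no test of their own.

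The study measured poly(A) RNA in 4 human acute myeloid leukaemia cell lines after guide-directed knockout of SUV39H1 alone (SKO) or of SUV39H1 and SUV39H2 together (DKO), each beside a control guide (sgControl). SUV39H1 and SUV39H2 are methyltransferases that modify histone H3 in heterochromatin. The 35 libraries form 13 groups. U937 cells treated with TPA, a phorbol ester that activates protein kinase C and drives monocytic cells towards macrophages, gave DKO, SKO and sgControl groups of 3 libraries each. Untreated U937 cells gave the same 3 groups of 3, and so did THP-1 cells. MOLM-13 gave SKO and sgControl groups of 2, and OCI-AML-3 gave DKO and sgControl groups of 2. U937, MOLM-13 and THP-1 cells grew in RPMI-1640 with 10% serum, with BME added for THP-1, and OCI-AML-3 cells grew in MEM alpha with 20% serum. The labels give no dose or time for TPA. Nothing in them ties replicates to separate cultures; the spread behind every p-value is that between libraries and may be technical.

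The lysosome digests material delivered by endocytosis, phagocytosis and autophagy. The V-ATPase pumps protons into it, cathepsins and lysozyme do the digesting at the acid pH this gives, and LAMP1 coats the inner face of its membrane. The pump's d subunit links its membrane ring to its stalk and exists in a broadly expressed form, ATP6V0D1, and a form known from osteoclasts, kidney and macrophages, ATP6V0D2. Monocytes and macrophages carry large amounts of these proteins, and many lysosomal genes hold a palindromic E-box in their promoters, at which the MiT/TFE transcription factors (TFEB, TFE3, MITF) can bind.

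The promoter table of RefSeq (GRCh38.p14) held an entry for 5 of the 10 genes. The 250 bases upstream of the start are printed for ATP6V0D1, CTSD and LAMP1, which hold the E-box, and for CTSL, which holds none of the 4 motifs searched. They lie at chr16:67481158-67481407 (minus strand), chr11:1763928-1764177 (minus strand), chr13:113296989-113297238 (plus strand) and chr9:87725869-87726118 (plus strand). Capitals mark the E-box CACGTG, the same with T before it on either strand (TCACGTG), and the PU.1 motif GAGGAAGT on either strand, and the first motif lies within the second.
ATP6V0D1: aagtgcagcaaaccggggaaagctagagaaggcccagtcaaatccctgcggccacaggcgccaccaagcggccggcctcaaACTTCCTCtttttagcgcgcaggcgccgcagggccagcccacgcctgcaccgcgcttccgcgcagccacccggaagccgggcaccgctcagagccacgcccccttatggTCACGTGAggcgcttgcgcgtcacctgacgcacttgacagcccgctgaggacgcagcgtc
CTSD: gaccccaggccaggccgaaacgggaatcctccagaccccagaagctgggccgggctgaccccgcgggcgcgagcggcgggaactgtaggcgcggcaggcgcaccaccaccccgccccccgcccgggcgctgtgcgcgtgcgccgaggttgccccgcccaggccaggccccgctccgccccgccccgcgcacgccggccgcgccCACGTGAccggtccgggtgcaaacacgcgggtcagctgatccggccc
LAMP1: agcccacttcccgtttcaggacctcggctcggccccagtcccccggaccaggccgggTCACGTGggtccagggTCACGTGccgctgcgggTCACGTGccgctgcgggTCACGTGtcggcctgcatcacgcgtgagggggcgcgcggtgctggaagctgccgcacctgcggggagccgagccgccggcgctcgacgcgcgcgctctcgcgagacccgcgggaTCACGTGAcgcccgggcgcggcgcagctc
CTSL: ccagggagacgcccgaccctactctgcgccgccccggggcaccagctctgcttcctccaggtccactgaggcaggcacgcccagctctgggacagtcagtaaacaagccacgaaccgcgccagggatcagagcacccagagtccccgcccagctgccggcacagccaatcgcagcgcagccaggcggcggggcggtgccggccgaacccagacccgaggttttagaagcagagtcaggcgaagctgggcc

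LAMP1 held 5 E-boxes, beginning 192, 176, 159, 142 and 28 bases before the start. CTSD held 1, beginning 47 bases before the start. ATP6V0D1 held 1, beginning 59 bases before the start, and a PU.1 motif beginning 169 bases before it. The E-box occurred in 1772 of 27305 promoters of the same length (6.49%). In a set pooling the genes described here with all gene lists counted further on, it occurred in 24 of 107 promoters (22.4%). That set includes ATP6V0D1, CTSD and LAMP1 themselves. It also takes in the lists of cathepsin inhibitors and of osteoclast and giant-cell genes, which are not all lysosomal. Among all 27305 promoters, TCACGTG occurred in 923 (3.38%), the AP-1 motif TGAGTCA in 1136 (4.16%) and GAGGAAGT in 582 (2.13%). CTSZ, like CTSL, held none of the 4. By group mean CTSZ stood highest in TPA-treated U937 DKO, as ATP6V0D1 and CTSD did, and CTSL in THP-1 sgControl. A link between motif and level was not tested. A match is a run of letters and not a bound site.

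Counted reads per library ranged from 31985767 to 61178704. The 8 myeloid markers summed to 290.7 CPM (counts scaled to library size, per 1000000) or more in every library, and 5 to 7 of them exceeded 1 CPM in each group. PTPRC, SPI1 and CD33 made up most of that sum in untreated U937 sgControl, where CD14 averaged 0.0945 CPM and MPO 0.329 CPM, and CD68 stayed at 0.0742 to 0.651 CPM in all groups. Lymphoid markers summed to at most 11.7 CPM in any library. The targeted gene did not check every label: SUV39H1 averaged 7.63 ± 0.63 CPM in MOLM-13 SKO, against 28.7 ± 1.6 CPM in sgControl, and 3.48 ± 1.05 CPM in OCI-AML-3 DKO, against 35.8 ± 1.3 CPM (SD, n = 2 each). In THP-1 it averaged 55.2 ± 0.6 CPM in DKO and 95.5 ± 5.3 CPM in SKO, against 35.3 ± 2.9 CPM in sgControl, and in untreated U937 83.0 ± 0.6 CPM in DKO and 112.6 ± 3.6 CPM in SKO, against 66.3 ± 3.6 CPM (SD, n = 3 each). In TPA-treated U937 SUV39H1 averaged 22.3 ± 0.29 CPM in DKO and 53.5 ± 2.8 CPM in SKO, against 36.8 ± 1.1 CPM (SD, n = 3 each). SUV39H2, the other target in DKO, averaged 9.91 ± 0.66 CPM in TPA-treated U937 DKO, against 20.2 ± 0.72 CPM in sgControl, 32.8 ± 2.3 CPM in untreated U937 DKO, against 43.0 ± 2.1 CPM, and 13.8 ± 0.64 CPM in THP-1 DKO, against 31.9 ± 0.88 CPM (SD, n = 3 each). It averaged 19.1 ± 2.0 CPM in OCI-AML-3 DKO, against 24.1 ± 3.4 CPM, and 12.3 ± 0.98 CPM in MOLM-13 SKO, where it was not the target, against 27.5 ± 1.6 CPM (SD, n = 2 each). Guide-made changes can leave the mRNA in place, so the mRNA level does not check the labels where it was not lower. Library names carry a clone number in THP-1 SKO and sgControl and in untreated U937 DKO, so these groups may each be 1 clone. The U937 DKO and THP-1 DKO libraries lack the date code that their SKO and sgControl libraries share, and run and genotype cannot be told apart there. TPA-treated and untreated libraries were deposited in different tables, and treatment and table cannot be told apart.

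Levels below are CPM scaled by the trimmed mean of M-values over all 35 libraries, and differences are log2 fold changes with a standard error. That error is the size of the log2 fold change divided by the square root of the test's F statistic. Where a group holds few reads and the fold change is large, it is too small, and the largest such values carry none. Each fit was scaled over its own libraries, so a small fold change can differ from the ratio of the printed levels. Calls rest on edgeR's quasi-likelihood test, with p-values adjusted by Benjamini and Hochberg over all genes tested and a threshold of 0.05.

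**Figure D1:**
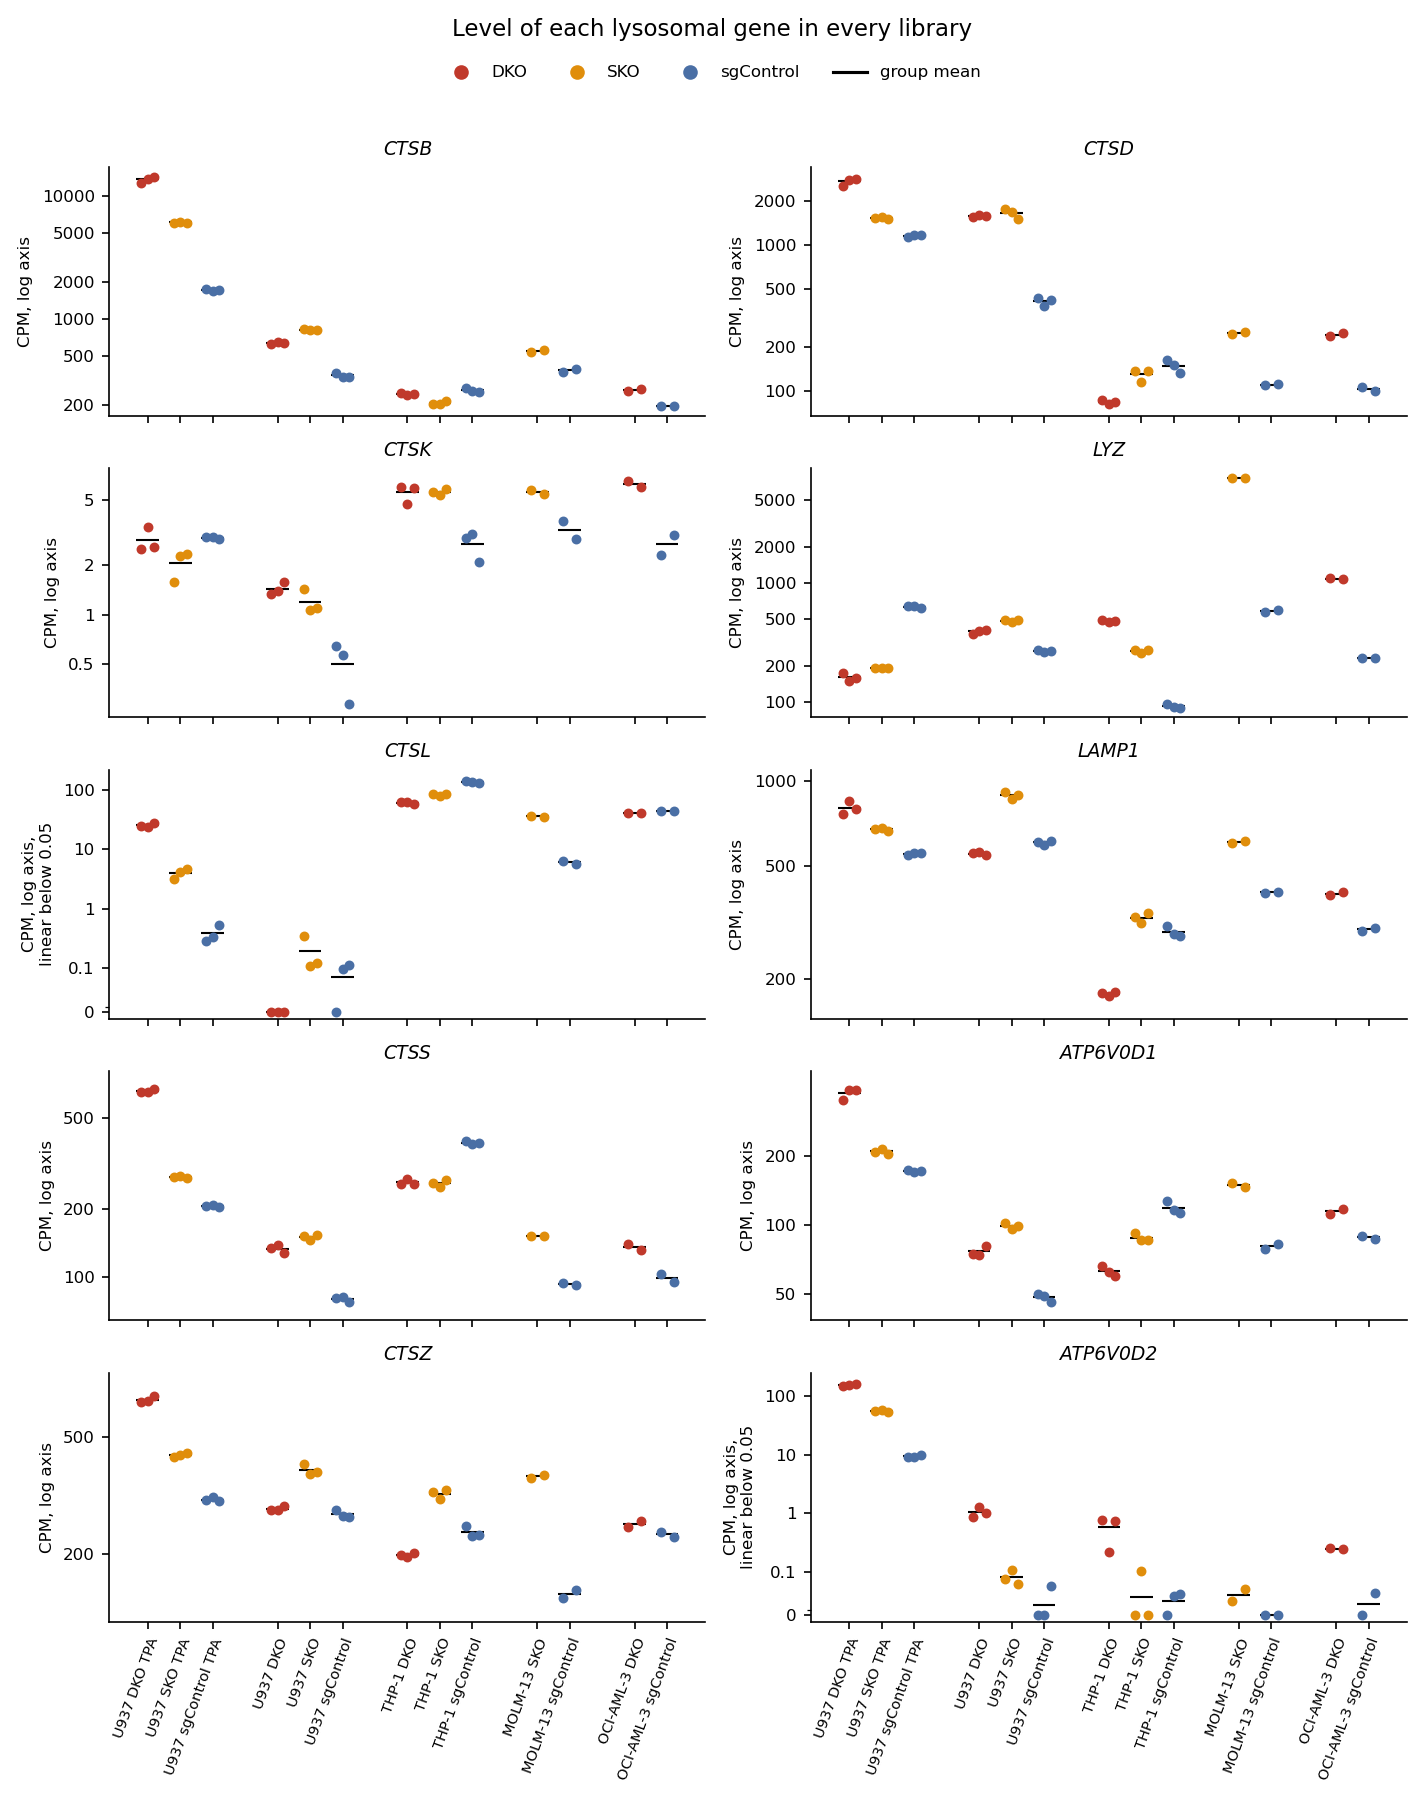
Level of each of the 10 genes (CPM, log axis, linear near 0 for CTSL and ATP6V0D2) in the 13 groups, with 1 point per library and a line at the group mean. CTSB and ATP6V0D2 stood highest in the 3 TPA-treated U937 groups, CTSL in THP-1 and LYZ in MOLM-13 SKO.

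By group mean, ATP6V0D2, ATP6V0D1 and CTSB shared their first 3 places, TPA-treated U937 DKO, then SKO, then sgControl, and no library of these groups overlapped the next group down. CTSS and CTSZ also stood highest in TPA-treated DKO, and LAMP1 in untreated U937 SKO. CTSL ran through THP-1 sgControl, SKO and DKO before any other line, and LYZ began with MOLM-13 SKO and OCI-AML-3 DKO, again with no overlap between neighbours. The lowest ATP6V0D2 groups, from MOLM-13 SKO down, overlapped their neighbours, and so did the 4 lowest CTSL groups, from TPA-treated sgControl down to untreated U937 DKO. CTSK overlapped most widely, from MOLM-13 SKO through THP-1 SKO to THP-1 DKO and again from MOLM-13 sgControl down to TPA-treated SKO.

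In TPA-treated U937 cells, 8 of the 10 genes were higher in DKO than in sgControl and 1, LYZ, was lower, where 34.1% of all 16246 genes tested were higher and 36.5% lower. The same 8 genes were higher in SKO than in sgControl, and LYZ and CTSK were lower, beside 25.8% higher and 24.6% lower among all genes. All 8 were also higher in DKO than in SKO, and LYZ was lower, beside 31.3% higher and 32.4% lower. The median log2 fold change of the 10 was 1.19 for DKO and 0.42 for SKO, against medians of -0.0481 and -0.00461 over all genes. Properties of the libraries moved with these groups. Mitochondrial genes took 2.81 to 2.93% of reads in DKO and 5.17 to 5.51% in SKO, against 6.0 to 6.14% in sgControl. The 3 megakaryocyte markers summed to 24.8 to 25.9 CPM in DKO and 2.46 to 4.92 CPM in SKO, against 0.675 to 1.43 CPM in sgControl, with PF4 at 0 in SKO and sgControl. Nearly all of the DKO sum was PPBP, which averaged 24.3 CPM in DKO and 2.30 CPM in SKO, against 0.370 CPM. ITGA2B averaged 0.976 CPM in DKO and 1.40 CPM in SKO, against 0.561 CPM. The 8 myeloid markers summed to 1391 to 1470 CPM in DKO and 1046 to 1078 CPM in SKO, against 677 to 681 CPM in sgControl. Their part in the results was not tested.

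In untreated U937 cells, 8 of the 9 genes that could be tested were higher in SKO than in sgControl, beside 30.7% higher and 31.2% lower among 14915 genes. The ninth, ATP6V0D2, missed the test (adjusted p = 0.09), and CTSL had too few reads to enter the test. In DKO, 7 were higher (33.2% of all genes) and LAMP1 was lower (34.5% of all genes). DKO lay below SKO for 6 of the 9 and above it for ATP6V0D2, beside 24.1% higher and 24.9% lower among all genes. The median log2 fold change was 1.03 for SKO and 0.73 for DKO, against -0.00157 and -0.00575 over all genes. The myeloid markers summed to 737 to 764 CPM in DKO and 644 to 654 CPM in SKO, against 291 to 303 CPM in sgControl. The 5 lymphoid markers summed to 4.13 to 6.32 CPM in DKO and 7.83 to 9.15 CPM in SKO, against 10.4 to 11.7 CPM, with MS4A1 at 0 in all 3 groups and CD3D and CD3E at 0 in DKO. Their part in the results was not tested.

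THP-1 cells divided the same genes. In SKO, LYZ, CTSK, CTSZ and LAMP1 were higher than in sgControl and ATP6V0D1, CTSB, CTSD, CTSL and CTSS were lower, beside 20.6% higher and 22.8% lower among 18585 genes. In DKO, ATP6V0D2, LYZ and CTSK were higher and ATP6V0D1, CTSD, CTSL, CTSS, CTSZ and LAMP1 were lower, beside 31.9% and 33.7%. DKO lay above SKO for ATP6V0D2, LYZ, CTSB and CTSS and below it for ATP6V0D1, CTSD, CTSL, CTSZ and LAMP1, beside 25.3% and 28.5%. The medians of the 10 genes were -0.31 for DKO and -0.0037 for SKO, against 0.0504 and 0.0148 over all genes. Mitochondrial genes took 5.05 to 5.18% of reads in DKO and 5.67 to 6.10% in SKO, against 5.73 to 6.14% in sgControl. The myeloid markers summed to 1030 to 1039 CPM in DKO and 901 to 940 CPM in SKO, against 947 to 997 CPM. The 3 megakaryocyte markers summed to 2.21 to 3.00 CPM in DKO and 0.571 to 0.934 CPM in SKO, against 0.638 to 0.874 CPM, with PF4 at 0 in all 3 groups. Nearly all of this was ITGA2B, at 2.59 CPM in DKO and 0.717 CPM in SKO, against 0.769 CPM. The 3 stromal markers summed to 3.27 to 3.95 CPM in DKO and 3.47 to 3.72 CPM in SKO, against 1.39 to 2.20 CPM, and the 3 epithelial markers to 0.635 to 0.775 CPM and 0.915 to 1.11 CPM, against 1.63 to 3.06 CPM. Most of the stromal sum was PDGFRB (2.81 CPM in DKO and 3.30 CPM in SKO, against 1.45 CPM). Most of the epithelial sum was KRT8 (0.596 CPM in DKO and 0.914 CPM in SKO, against 2.19 CPM). Their part in the results was not tested.

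In MOLM-13, all 9 genes that could be tested were higher in SKO than in sgControl, beside 31.8% higher and 32.2% lower among 15472 genes. In OCI-AML-3, 9 of 10 were higher in DKO than in sgControl and CTSL missed the test, beside 24.3% and 25.6% among 16175 genes. The medians were 0.90 and 0.45, against 0.0229 and 0.0161 over all genes. Mitochondrial reads took 9.39 to 9.49% of MOLM-13 SKO libraries, against 7.0 to 7.44% of sgControl libraries, and 7.56 to 7.85% of OCI-AML-3 DKO libraries, against 6.56 to 6.68% of sgControl libraries. The 3 erythroid markers summed to 0.149 and 3.00 CPM in the MOLM-13 SKO libraries and were at 0 reads in sgControl, and the 3 epithelial markers summed to 12.4 to 12.8 CPM, against 18.2 to 18.7 CPM, with EPCAM at 0 in both. The myeloid markers summed to 1088 to 1131 CPM in MOLM-13 SKO, against 910 to 943 CPM in sgControl, and to 795 to 798 CPM in OCI-AML-3 DKO, against 623 to 646 CPM. Their part in the results was not tested.

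**Figure D2:**
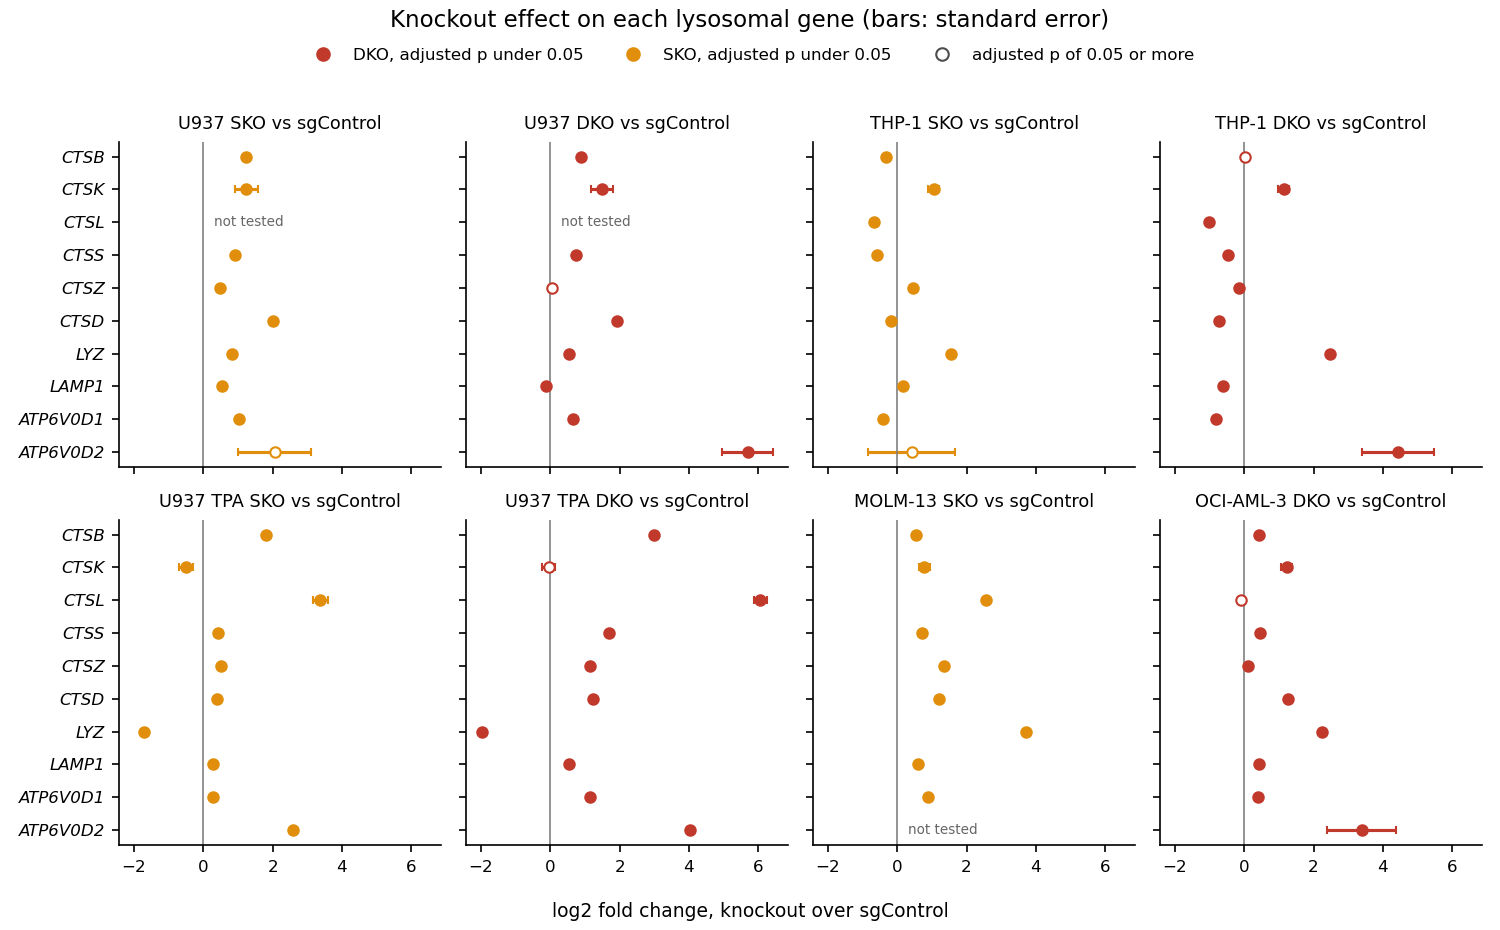
Log2 fold change of each gene, knockout over sgControl, with its standard error, in each cell line and in TPA-treated U937. Filled points passed the test at an adjusted p of 0.05. The standard error is too small where a group holds few reads and the change is large. LYZ lay above 0 in the 6 untreated comparisons and below 0 in both TPA-treated ones, and CTSD lay above 0 outside THP-1.

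The V-ATPase d subunit ATP6V0D2 (chr8:85987323-86154225, plus strand, hg38) was close to absent without TPA and abundant with it. It read 147, 154 and 159 CPM in TPA-treated DKO and 56.3, 58.8 and 53.5 CPM in TPA-treated SKO, against 9.14, 9.23 and 10.0 CPM in TPA-treated sgControl. No library of a genotype overlapped those of another. The log2 fold change was 4.03 ± 0.06 for DKO (adjusted p = 1.1e-28) and 2.58 ± 0.06 for SKO (adjusted p = 2.2e-23), and DKO exceeded SKO by 1.46 ± 0.05 (adjusted p = 2.6e-20).

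Without TPA the same genotype order appeared at a far lower level. ATP6V0D2 read 0.852, 1.28 and 1.02 CPM in U937 DKO and 0.0748, 0.107 and 0.0608 CPM in U937 SKO, against 0, 0 and 0.0571 CPM in sgControl. These are 113 reads in DKO and 9 in SKO, against 2 in sgControl. Counting error alone gives a ratio of 63.1 (95% interval 17.1 to 528) for DKO, whose call passed the test (adjusted p = 7.7e-08), and of 4.87 (1.01 to 46.3) for SKO, which missed it (adjusted p = 0.09). These intervals take reads as independent. Mates of a pair were counted singly in these libraries, so the intervals are too narrow. DKO exceeded SKO by 3.64 ± 0.59 (adjusted p = 6.7e-06). Without sgControl replicate 3, which holds both control reads, the SKO call passed (adjusted p = 0.015).

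The other lines read ATP6V0D2 near its detection limit in sgControl as well. THP-1 DKO read 0.754, 0.221 and 0.750 CPM and SKO 0, 0.104 and 0 CPM, against 0, 0.0380 and 0.0418 CPM in sgControl. DKO rose by 4.43 ± 1.03 (adjusted p = 0.00039), while the SKO difference was 0.42 ± 1.26 (95% interval -2.15 to 2.99, adjusted p = 0.82). DKO exceeded SKO by 4.02 ± 0.97 (adjusted p = 0.00084), where all 6 SKO reads come from SKO replicate 2. Without that replicate SKO is at 0 reads, and the fitted 7.86 depends on how zeros are treated and is no bound. OCI-AML-3 DKO read 0.249 and 0.246 CPM, against 0 and 0.0425 CPM in sgControl, or 24 against 2 reads, a ratio of 11.6 (2.88 to 101). That call (adjusted p = 0.0038) was lost without sgControl replicate 1 (2.47, adjusted p = 0.14) and without sgControl replicate 2 the control is at 0 reads, so that the fitted 6.59 (adjusted p = 0.015) is no bound. MOLM-13 held 3 reads in SKO and 0 in sgControl, which is at the floor of 3 reads and gives no fold.

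The broadly expressed ATP6V0D1 (chr16:67438014-67481181, minus strand) also stood highest in TPA-treated DKO. It read 351, 391 and 389 CPM in DKO and 208, 215 and 205 CPM in SKO, against 173, 170 and 173 CPM in sgControl. The difference was 1.14 ± 0.04 for DKO (adjusted p = 2.8e-20) and 0.29 ± 0.04 for SKO (adjusted p = 2.4e-07). The lines went apart without TPA. U937 read 75.0, 74.3 and 81.2 CPM in DKO and 102, 96.0 and 99.5 CPM in SKO, against 50.2, 48.9 and 46.2 CPM in sgControl. THP-1 read 66.2, 62.5 and 59.8 CPM in DKO and 91.9, 86.2 and 86.4 CPM in SKO, against 127, 116 and 113 CPM in sgControl. Both U937 knockouts lay above all their controls (0.66 ± 0.05 for DKO and 1.03 ± 0.05 for SKO), and both THP-1 knockouts below theirs (-0.82 ± 0.05 and -0.42 ± 0.05). MOLM-13 SKO read 152 and 147 CPM, against 78.4 and 82.9 CPM in sgControl, and OCI-AML-3 DKO 112 and 118 CPM, against 89.5 and 87.1 CPM. These were higher by 0.90 ± 0.04 and 0.39 ± 0.06. Per kb of exon not shared with another gene, ATP6V0D2 averaged 63.0 CPM in TPA-treated DKO, beside 46.2 CPM for ATP6V0D1, and 3.88 CPM in TPA-treated sgControl, beside 21.1 CPM for ATP6V0D1.

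CTSD (chr11:1752752-1764573, minus strand), the aspartic protease among the cathepsins, had its largest knockout differences in untreated U937. It read 1568, 1619 and 1572 CPM in DKO and 1769, 1696 and 1509 CPM in SKO, against 436, 381 and 423 CPM in sgControl. Both knockouts were far above the control, by 1.94 ± 0.05 for DKO (adjusted p = 5.8e-24) and 2.00 ± 0.05 for SKO (adjusted p = 3.6e-24), and they overlapped each other (-0.07 ± 0.04, 95% interval -0.16 to 0.03, adjusted p = 0.23). OCI-AML-3 DKO read 236 and 248 CPM, against 106.2 and 98.9 CPM in sgControl, and MOLM-13 SKO 245 and 254 CPM, against 109 and 111 CPM. These were higher by 1.25 ± 0.06 (adjusted p = 4.6e-25) and 1.19 ± 0.03 (adjusted p = 2.3e-24). In THP-1, CTSD was lower instead, at 86.9, 80.9 and 84.2 CPM in DKO (-0.72 ± 0.06, adjusted p = 4.6e-12) and 137, 116 and 137 CPM in SKO, against 162, 151 and 133 CPM in sgControl. The SKO libraries overlapped the controls, and their call (-0.18 ± 0.06, adjusted p = 0.0091) was lost without sgControl replicate 1 (-0.13, adjusted p = 0.058) or SKO replicate 2 (-0.10, adjusted p = 0.15). With TPA, CTSD read 2550, 2779 and 2860 CPM in DKO and 1534, 1558 and 1503 CPM in SKO, against 1143, 1167 and 1167 CPM in sgControl. Other annotated genes overlap 48.0% of its exon bases and held at most 133 reads each in any library.

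CTSB (chr8:11842524-11869533, minus strand), a cysteine protease that cuts within and at the ends of proteins, rose with TPA and further with each knockout. TPA-treated DKO read 12726, 13569 and 14205 CPM and SKO 6033, 6107 and 6036 CPM, against 1756, 1692 and 1712 CPM in sgControl. DKO was higher by 2.98 ± 0.03 (adjusted p = 7.1e-32), SKO by 1.82 ± 0.03 (adjusted p = 7.5e-27), and DKO exceeded SKO by 1.16 ± 0.03 (adjusted p = 8.7e-23). Without TPA, U937 DKO read 626, 651 and 641 CPM and SKO 819, 808 and 811 CPM, against 361, 338 and 340 CPM in sgControl, and DKO was lower than SKO (-0.35 ± 0.03, adjusted p = 6.1e-10). DKO thus stood above SKO with TPA and below it without. THP-1 DKO read 251, 241 and 245 CPM and SKO 205, 202 and 217 CPM, against 276, 259 and 252 CPM in sgControl. SKO was lower (-0.33 ± 0.04, adjusted p = 4e-08), and the DKO difference was 0.01 ± 0.04 (95% interval -0.07 to 0.09, adjusted p = 0.83). Its direction is not settled: on the scaling over all 35 libraries every DKO library lay below every sgControl library, while the fit, scaled within THP-1, gave a difference just above 0. CTSB was higher in MOLM-13 SKO (542 and 554 CPM, against 372 and 391 CPM) and in OCI-AML-3 DKO (257 and 269 CPM, against 196 and 196 CPM).

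CTSL (chr9:87724051-87731469, plus strand), an endopeptidase of the same family, was abundant in THP-1 and near absent in untreated U937. It read 62.0, 63.1 and 57.4 CPM in THP-1 DKO and 83.6, 80.0 and 83.6 CPM in SKO, against 138, 133 and 128 CPM in sgControl. Both knockouts were lower, by -1.02 ± 0.05 for DKO (adjusted p = 6.9e-18) and -0.68 ± 0.05 for SKO (adjusted p = 1.3e-13), and DKO was lower than SKO (-0.34 ± 0.05, adjusted p = 3e-07). MOLM-13 went the other way, at 35.5 and 35.4 CPM in SKO, against 6.36 and 5.71 CPM in sgControl (2.57 ± 0.09, adjusted p = 1.1e-21). OCI-AML-3 read 40.01 and 41.4 CPM in DKO, against 44.5 and 43.2 CPM in sgControl, a difference of -0.10 ± 0.07 (95% interval -0.24 to 0.04, adjusted p = 0.26).

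In U937, CTSL was near absent without TPA, and with TPA it still averaged only 0.383 CPM in sgControl. Untreated cells held 0 reads in DKO and 22 in SKO, against 8 in sgControl. SKO replicate 1 held 14 of the 22, and sgControl replicate 1 held 0. With a floor of 3 reads over the DKO group and the other count taken as exact, DKO was 2.48-fold lower than sgControl and 6.86-fold lower than SKO. With counting error in both groups, the 95% interval of the ratio reached 0.654 against sgControl and 0.188 against SKO. Mates of a pair were counted singly here too, so both intervals are too narrow. With TPA it read 24.6, 23.96 and 27.5 CPM in DKO and 3.12, 4.06 and 4.63 CPM in SKO, against 0.289, 0.328 and 0.531 CPM in sgControl. The 3 groups did not overlap, and DKO was higher than sgControl by 6.07 (adjusted p = 1.7e-21) and SKO by 3.38 ± 0.21 (adjusted p = 2e-13). The sgControl group held 46 reads. DKO exceeded SKO by 2.69 ± 0.12 (adjusted p = 7.2e-17). CTSL has pseudogene copies elsewhere in the genome, and reads mapping to several places were left out of the counts in the table whose header gives its settings.

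CTSS (chr1:150730079-150765957, minus strand), the cathepsin that trims the invariant chain of MHC class II in antigen-presenting cells, rose in 6 of the 8 knockout groups and fell in both of THP-1. With TPA it read 653, 649 and 670 CPM in DKO and 277, 279 and 272 CPM in SKO, against 207, 207 and 203 CPM in sgControl. THP-1 read 257, 269 and 257 CPM in DKO and 259, 250 and 267 CPM in SKO, against 396, 384 and 388 CPM in sgControl. The TPA-treated DKO rose by 1.69 ± 0.03 (adjusted p = 5.2e-26), and the THP-1 knockouts fell by 0.47 ± 0.04 (DKO, adjusted p = 3.7e-12) and 0.58 ± 0.04 (SKO, adjusted p = 7e-14). In untreated U937 it read 134, 139 and 128 CPM in DKO and 152, 146 and 154 CPM in SKO, against 81.5, 81.5 and 77.8 CPM in sgControl. The 2 THP-1 knockouts overlapped; the call between them (0.11 ± 0.04, adjusted p = 0.015) was lost without SKO replicate 2 (0.09, adjusted p = 0.060) or DKO replicate 2 (0.08, adjusted p = 0.12). CTSS was higher by 0.71 ± 0.04 in MOLM-13 SKO and by 0.46 ± 0.06 in OCI-AML-3 DKO.

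CTSK (chr1:150794880-150809577, minus strand), the collagen-degrading cathepsin of osteoclasts and the neighbour of CTSS on the chromosome, stayed under 7 CPM in every library. Its highest levels were 6.45 and 5.95 CPM in OCI-AML-3 DKO, against 2.31 and 3.04 CPM in sgControl (1.22 ± 0.17, adjusted p = 1.5e-08). It was higher in all 6 knockout groups without TPA, by 0.79 ± 0.17 (MOLM-13 SKO) to 1.49 ± 0.33 (U937 DKO). With TPA it read 2.50, 3.43 and 2.57 CPM in DKO and 1.58, 2.27 and 2.35 CPM in SKO, against 2.97, 2.95 and 2.89 CPM in sgControl. SKO lay below all controls (-0.50 ± 0.20, adjusted p = 0.037), but the call was lost without SKO replicate 1 (-0.34, adjusted p = 0.19) or any of the sgControl replicates (adjusted p = 0.087, 0.081 and 0.065 without replicates 1, 2 and 3). The SKO call was also lost with DESeq2's Wald test (adjusted p = 0.052) and without a filter on low counts (adjusted p = 0.077). The DKO difference was -0.04 ± 0.20 (95% interval -0.45 to 0.36, adjusted p = 0.85).

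CTSZ (chr20:58985686-59008238, minus strand), a carboxypeptidase, averaged 669 ± 17 CPM in TPA-treated DKO and 433 ± 7.1 CPM in SKO, against 306 ± 5.1 CPM in sgControl (SD, n = 3 each). In MOLM-13 it read 363 and 371 CPM in SKO, against 141 and 150 CPM in sgControl, its largest difference (1.34 ± 0.03, adjusted p = 2.8e-26). SKO and DKO parted in both untreated lines. In U937 it was higher in SKO (0.50 ± 0.04, adjusted p = 1.3e-12) and differed by 0.06 ± 0.04 in DKO (95% interval -0.02 to 0.13, adjusted p = 0.17), and in THP-1 it was higher in SKO (0.44 ± 0.04) and lower in DKO (-0.15 ± 0.04, adjusted p = 0.0010). In OCI-AML-3 the call (0.12 ± 0.05, adjusted p = 0.046) was lost without any single library, with values of 0.09 to 0.15.

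LYZ (chr12:69348381-69354234, plus strand), which cuts bacterial cell walls and is a marker of monocytes and granulocytes, was higher than sgControl in all 6 knockout groups without TPA and lower in both with TPA. MOLM-13 SKO read 7573 and 7639 CPM, against 568 and 593 CPM in sgControl, a rise of 3.72 ± 0.02 (13.2-fold, adjusted p = 7.9e-41). OCI-AML-3 DKO read 1109 and 1074 CPM, against 235 and 233 CPM in sgControl (2.23 ± 0.05, adjusted p = 4.9e-38). THP-1 read 486, 468 and 482 CPM in DKO and 273, 258 and 274 CPM in SKO, against 95.8, 91.1 and 89.8 CPM in sgControl. The steps were 2.48 ± 0.04 for DKO (adjusted p = 1.2e-28) and 1.55 ± 0.04 for SKO (adjusted p = 1e-23), with DKO above SKO by 0.93 ± 0.04 (adjusted p = 3.4e-18). In untreated U937 the rises were smaller (0.54 ± 0.03 for DKO and 0.84 ± 0.03 for SKO), at 377, 397 and 406 CPM in DKO and 489, 470 and 489 CPM in SKO, against 274, 265 and 271 CPM in sgControl.

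With TPA the order of LYZ turned round. DKO read 176, 150 and 160 CPM and SKO 194, 195 and 194 CPM, against 637, 644 and 620 CPM in sgControl. LYZ fell by 1.96 ± 0.04 on the log2 scale in DKO (adjusted p = 1.8e-24) and by 1.70 ± 0.04 in SKO (adjusted p = 1.2e-22), while CTSB rose in the same libraries. An antisense gene overlaps 34.7% of the exon bases of LYZ, and it held 0 reads in every library.

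LAMP1 (chr13:113297239-113323672, plus strand) had the narrowest changes of the 10. Its log2 fold changes over sgControl ran from -0.62 ± 0.04 in THP-1 DKO (adjusted p = 1.8e-14) to 0.60 ± 0.03 in MOLM-13 SKO (adjusted p = 2.9e-19). It averaged 802 ± 44 CPM in TPA-treated DKO and 674 ± 10 CPM in SKO, against 553 ± 6.1 CPM in sgControl. In untreated U937 DKO lay below sgControl and SKO above it, at 554 ± 6.8 CPM and 889 ± 23 CPM, against 607 ± 9.4 CPM (SD, n = 3 each). The DKO difference was -0.13 ± 0.03 (adjusted p = 0.00045).

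The response to TPA was compared within each U937 genotype. In DKO, 9 of the 10 genes were higher with TPA and LYZ was lower, beside 36.9% higher and 36.2% lower among 16989 genes. In SKO, 7 were higher and LYZ and LAMP1 lower, beside 31.5% and 31.4%, and in sgControl, 9 were higher and LAMP1 lower, beside 34.6% and 33.2%. The medians were 1.81 in DKO, 0.86 in SKO and 1.67 in sgControl, against 0.0316, 0.0395 and 0.0533 over all genes. ATP6V0D2 rose by 7.22 in DKO (adjusted p = 2.3e-37) and by 9.40 in SKO (adjusted p = 1.2e-34), from 113 and 9 reads untreated. In sgControl it held 1150 reads with TPA against 2 without, a ratio of 564 (counting interval 156 to 4661). CTSB rose by 4.44 ± 0.04 in DKO, 2.93 ± 0.03 in SKO and 2.32 ± 0.03 in sgControl. CTSL held 477 reads in TPA-treated SKO against 22 untreated, and 46 in TPA-treated sgControl against 8. In DKO it held 2556 reads with TPA and 0 untreated. With a floor of 3 reads over the untreated group and the other count taken as exact, it was 904-fold higher. With counting error in both groups, the 95% interval of that ratio began at 735. Both counting intervals take reads as independent. Mates of a pair were counted singly in the untreated libraries, so these intervals are too narrow. LYZ parted from the rest, with a log2 fold change of -1.24 ± 0.04 in DKO (adjusted p = 4.1e-25) and -1.28 ± 0.04 in SKO (adjusted p = 2.3e-25), and of 1.24 ± 0.04 in sgControl (adjusted p = 3.8e-25). CTSD rose by 0.83 ± 0.04 in DKO and 1.5 ± 0.05 in sgControl, and differed by -0.08 ± 0.04 in SKO (95% interval -0.17 to 0.01, adjusted p = 0.094). Without SKO replicate 3 that difference was -0.15 (adjusted p = 0.0031).

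**Figure D3:**
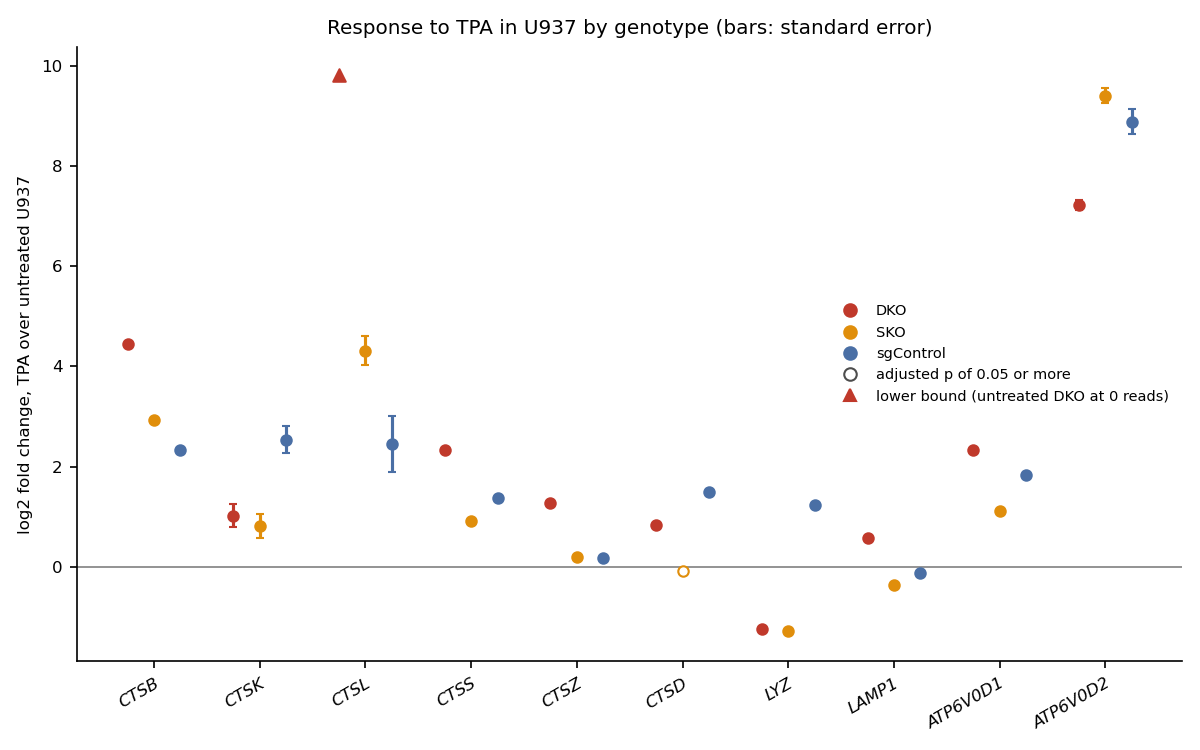
Log2 fold change of each gene, TPA-treated over untreated U937, in DKO, SKO and sgControl, with its standard error. An open point missed the test and the triangle is a lower bound at a floor of 3 reads. The standard error is too small where a group holds few reads and the change is large. LYZ was lower with TPA in DKO and SKO and higher in sgControl, and CTSB was higher with TPA in all 3 genotypes.

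Whether the knockout effect itself differed with TPA was tested as a difference of log2 fold changes, TPA-treated minus untreated. For DKO all 10 genes passed in this fit, 6 with a larger (more positive) and 4 with a smaller effect under TPA, beside 21.7% and 27.8% of all genes. For SKO 7 passed, 1 larger and 6 smaller, beside 19.6% and 18.1%. ATP6V0D2 passed only narrowly (-1.67, adjusted p = 0.049), and its call was lost with DESeq2 size factors, DESeq2's Wald test, no filter, the replicate block or the compared groups alone (adjusted p = 0.051 to 0.12), and in 10 of 12 fits without 1 library. The DKO effect was larger under TPA by 2.12 ± 0.04 for CTSB (adjusted p = 5.2e-30) and smaller by 2.48 for LYZ (difference -2.48 ± 0.06, adjusted p = 9.4e-29). SKO and DKO share their sgControl libraries, so these differences are not independent of each other.

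The lines were compared in the same way, U937 minus THP-1. For SKO 7 genes passed, 6 with a larger effect in U937 and LYZ with a smaller one, beside 24.1% and 22.7% of all genes. For DKO 7 passed as well, 6 larger and LYZ smaller, beside 29.7% and 24.7%. CTSD differed by 2.7 ± 0.09 for DKO (adjusted p = 2.8e-24) and 2.20 ± 0.09 for SKO (adjusted p = 9.7e-22). ATP6V0D1 differed by 1.52 ± 0.07 for DKO and 1.47 ± 0.07 for SKO.

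The makeup of the 6 cathepsins was described per kb of exon not shared with another gene, which allows levels of different genes to be set side by side. CTSD made up 84.0% of the summed level in untreated U937 DKO and 81.4% in SKO, against 68.2% in sgControl. With TPA the balance passed to CTSB, which made up 54.4% in DKO and 49.3% in SKO, against 26.8% in sgControl, while CTSD made up 39.2% and 44.4%, against 64.4%. The summed level itself was 2353 CPM per kb in TPA-treated DKO and 1166 in SKO, against 608 in sgControl, and 638 and 688, against 205, without TPA. In THP-1 it ran the other way, at 115 in DKO and 140 in SKO, against 172 in sgControl. In THP-1, CTSS made up 32.9% in DKO and 26.9% in SKO, against 32.9% in sgControl, and CTSL 8.64% and 9.66%, against 12.7%. Dividing by the whole deposited length puts the share of CTSD lower, at 74.6% in untreated U937 DKO and 71.0% in SKO, against 55.3% in sgControl, and that of CTSB higher, at 67.6% in TPA-treated DKO and 63.4% in SKO, against 39.5% in sgControl. Summed exon lengths, 19384 bases for CTSZ, exceed the main transcripts and lower the levels per kb.

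**Figure D4:**
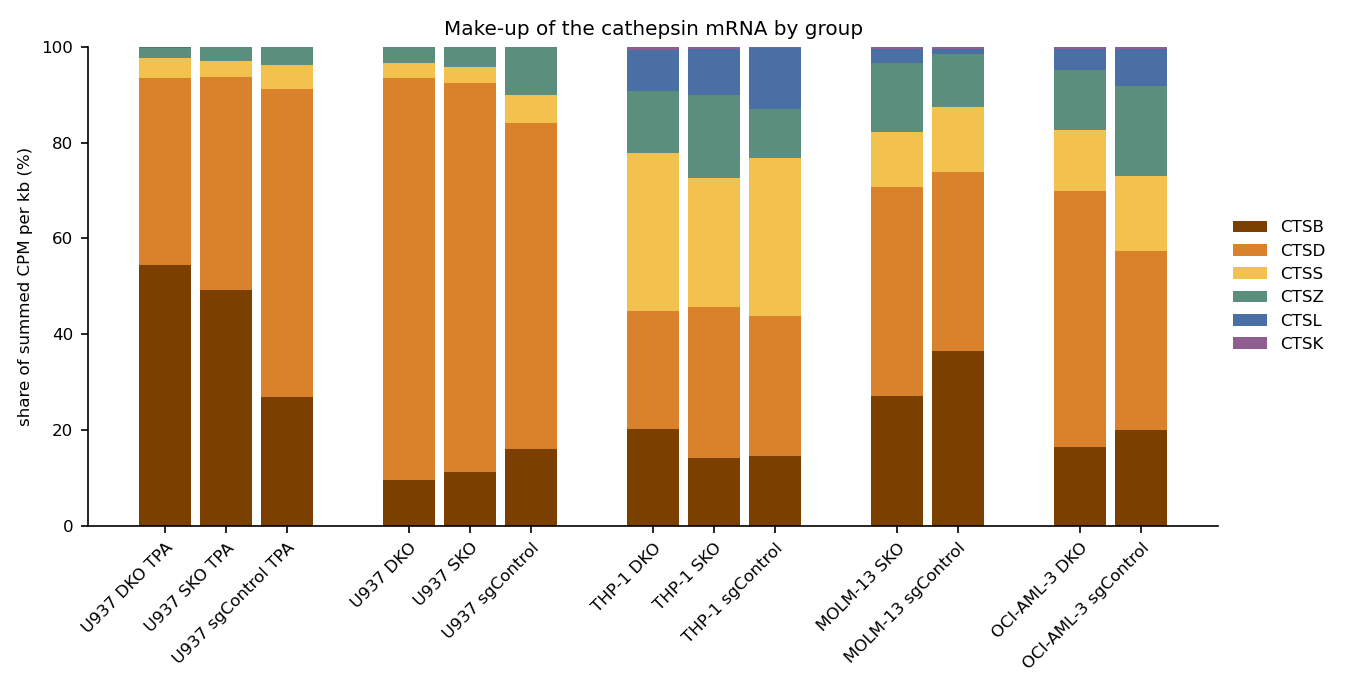
Share of each of the 6 cathepsins in their summed level (percent of CPM per unshared kb) in each group. CTSD takes most of the bar in untreated U937, and CTSB has the largest share in TPA-treated DKO (54.4%) and SKO (49.3%). In THP-1, CTSS takes 26.9 to 32.9% and CTSL 8.64 to 12.7%, more than either takes in the other lines.

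Other lysosomal genes were counted from lists chosen by function. The shares of all genes tested were 33.2% higher and 34.5% lower in untreated U937 DKO, 30.7% and 31.2% in SKO, 34.1% and 36.5% in TPA-treated DKO, 25.8% and 24.6% in TPA-treated SKO, 31.8% and 32.2% in MOLM-13 SKO, 24.3% and 25.6% in OCI-AML-3 DKO, 31.9% and 33.7% in THP-1 DKO, and 20.6% and 22.8% in THP-1 SKO, and the counts of every list stand beside these. Of 38 other lysosomal hydrolases tested in untreated U937, 29 were higher and 2 lower in DKO (median 0.62), and 32 were higher and 3 lower in SKO (median 0.58). With TPA, 33 of 40 were higher and 3 lower in DKO (median 0.96) and 30 higher and 4 lower in SKO (median 0.31). MOLM-13 SKO gave 35 higher and 3 lower of 40, and OCI-AML-3 DKO 29 higher and 3 lower of 39. THP-1 DKO gave 11 higher and 17 lower of 41, shares near those of all genes, and SKO 16 of each. The hydrolases included GLA, the alpha-galactosidase, at 322 CPM in TPA-treated DKO, against 57.9 CPM in sgControl (2.48 ± 0.04, adjusted p = 6.8e-28). They also included ACP5, the tartrate-resistant acid phosphatase of osteoclasts and macrophages, at 53.7 CPM in DKO, against 0.298 CPM (7.50, adjusted p = 4.1e-25). In THP-1, DNASE2, the lysosomal DNase, fell to 3.19 CPM in DKO and 7.13 CPM in SKO, against 60.0 CPM in sgControl, and LIPA, the acid lipase, to 52.5 and 56.5 CPM, against 165 CPM.

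The rest of the pump was counted by line. Of the other V-ATPase subunits, 13 of 18 were higher and 3 lower in TPA-treated DKO (median 0.57, beside 34.1% and 36.5% of all genes), 13 of 18 higher and 4 lower in MOLM-13 SKO, and 10 of 17 higher and 4 lower in untreated U937 DKO. In untreated U937 SKO 12 of 17 were higher and the other 5 missed the test, and in OCI-AML-3 DKO 15 of 19 were higher and the other 4 missed it. In THP-1 DKO, 2 of 18 were higher and 15 lower (median -0.49, beside 31.9% and 33.7% of all genes), and in SKO 2 higher and 11 lower. ATP6AP1, an accessory subunit, averaged 643 CPM in TPA-treated DKO, against 197 CPM in sgControl (1.72 ± 0.04, adjusted p = 1.2e-24), and ATP6V1D of the stalk 24.4 CPM in THP-1 DKO, against 46.2 CPM (-0.82 ± 0.07, adjusted p = 2.4e-11). TCIRG1, the membrane subunit of the osteoclast pump, rose with TPA in sgControl to 147 CPM, against 30.4 CPM untreated (2.28 ± 0.06, adjusted p = 1.9e-28).

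Membrane proteins other than LAMP1 were higher in 14 of 19 cases and lower in 2 in TPA-treated DKO (34.1% and 36.5% of all genes), and higher in 3 of 20 and lower in 11 in THP-1 DKO (31.9% and 33.7% of all genes). NPC1, the cholesterol exporter, averaged 1083 CPM in untreated U937 DKO, against 116 CPM in sgControl (3.22 ± 0.04, adjusted p = 1.3e-31), and LAMP2, the partner of LAMP1, 815 CPM in SKO, against 344 CPM (1.24 ± 0.03, adjusted p = 1.1e-22). SLC11A1, a metal transporter of the phagosome, reached 10.3 CPM in TPA-treated DKO, against 0.865 CPM in sgControl. LAMP5, a member of the LAMP family, went the other way, at 89.5 CPM in untreated U937 DKO and 60.3 CPM in SKO, against 208 CPM in sgControl.

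Of the other cathepsins, 5 of 7 were higher and 1 lower in TPA-treated DKO, and 5 higher and 0 lower in TPA-treated SKO. Untreated U937 gave 3 of 6 higher and 3 lower in DKO, and 2 and 3 in SKO. THP-1 gave 4 of 8 higher and 3 lower in DKO, and 5 and 2 in SKO. MOLM-13 SKO gave 5 of 8 higher and 1 lower, and OCI-AML-3 DKO 7 of 7 higher. CTSG, a serine protease of granulocyte granules, was lower in the untreated U937 and MOLM-13 knockouts, where most of the members were higher. It averaged 1296 CPM in U937 DKO and 1439 CPM in SKO, against 2568 CPM in sgControl, and 142 CPM in MOLM-13 SKO, against 400 CPM. TPA lowered it to 33.6 CPM in sgControl, against 2568 CPM untreated (-6.25 ± 0.05, adjusted p = 1.1e-43). CTSH, an aminopeptidase, was higher in both U937 knockouts and reached 753 CPM in TPA-treated DKO, against 180 CPM in sgControl (2.08 ± 0.03, adjusted p = 7.3e-28). CTSF averaged 7.48 CPM in THP-1 DKO and 4.31 CPM in SKO, and held 0 reads in sgControl. Of the genes for cathepsin inhibitors, 7 of 9 were higher in TPA-treated DKO and 1 was lower (34.1% and 36.5% of all genes). In MOLM-13 SKO 7 of 9 were higher and 1 was lower (31.8% and 32.2% of all genes). THP-1 did not go the other way here. In THP-1 DKO 6 of 9 were higher and 2 lower (31.9% and 33.7% of all genes). In THP-1 SKO 5 of 9 were higher and 2 lower (20.6% and 22.8%). CST3, the secreted inhibitor cystatin C, averaged 721 CPM in MOLM-13 SKO, against 157 CPM in sgControl (2.21 ± 0.04, adjusted p = 2.1e-29), and 242 CPM in TPA-treated DKO, against 54.8 CPM.

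The regulators of lysosomal genes and the sorting genes were counted in the same way. Of 13 genes of the MiT/TFE factors and lysosomal sensing, 9 were higher and 1 lower in TPA-treated DKO (34.1% and 36.5% of all genes). In TPA-treated SKO 3 were higher and 4 lower (median -0.03, beside 25.8% and 24.6% of all genes), and in untreated U937 DKO 4 were higher and 4 lower, near the 33.2% and 34.5% of all genes. In untreated U937 SKO 7 were higher and the other 6 missed the test, and in MOLM-13 SKO 9 were higher and the other 4 missed it. In THP-1, 2 were higher and 8 lower in DKO and 3 higher and 8 lower in SKO; the THP-1 SKO total of 11 was 6 without SKO replicate 2. TFEB, a MiT/TFE factor, averaged 69.7 CPM in untreated U937 DKO and 57.6 CPM in SKO, against 22.1 CPM in sgControl, and 19.2 CPM in THP-1 DKO and 23.6 CPM in SKO, against 34.2 CPM. In OCI-AML-3 DKO 5 of 12 were higher and the other 7 missed the test; the 5 became 3 without sgControl replicate 2 or DKO replicate 2. TFEC, the macrophage member of the family, averaged 197 CPM in TPA-treated DKO and 118 CPM in SKO, against 35.6 CPM in sgControl. Of 14 sorting genes, 8 were higher and 2 lower in TPA-treated DKO, and 9 higher and 3 lower in TPA-treated SKO. Untreated U937 gave 8 higher and 3 lower in DKO, and 9 and 3 in SKO. MOLM-13 SKO gave 11 higher and 3 lower, and OCI-AML-3 DKO 8 higher and 0 lower. In THP-1 DKO 4 were higher and 8 lower (31.9% and 33.7% of all genes). In THP-1 SKO 2 were higher and 9 lower (20.6% and 22.8%). SORT1, a sorting receptor for lysosomal enzymes, was higher in all 8 knockout groups. The mannose-6-phosphate receptor gene IGF2R averaged 2035 CPM in TPA-treated DKO, against 954 CPM in sgControl.

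Genes of osteoclasts and multinucleated giant cells were listed because ATP6V0D2 and CTSK belong to that programme. ACP5, TCIRG1 and CLCN7 of this list were also counted in the lists above. With TPA, 9 of 11 were higher and 1 lower in DKO (36.9% and 36.2% of all genes), 8 higher and 2 lower in SKO (31.5% and 31.4%), and 9 higher and 1 lower in sgControl (34.6% and 33.2%). DCSTAMP, a receptor needed for cell fusion, averaged 97.5 CPM in TPA-treated sgControl, against 0.811 CPM untreated (6.91, adjusted p = 1.6e-37), and without TPA it was at 8.62 CPM in DKO. In untreated U937, 4 of 7 listed genes were higher than in sgControl and 3 lower in DKO, and 3 and 2 in SKO. THP-1 gave 3 of 11 higher and 3 lower in DKO, and 1 and 4 in SKO. MOLM-13 SKO gave 6 of 7 higher and 1 lower, and OCI-AML-3 DKO 6 of 10 higher and 3 lower. Between TPA-treated genotypes, 6 of 11 were higher and 3 lower in DKO (34.1% and 36.5% of all genes), and 5 of each in SKO (25.8% and 24.6%). MMP9, a gelatinase of osteoclasts and neutrophils, was lower in both, at 53.2 CPM in DKO and 7.53 CPM in SKO, against 731 CPM in sgControl (-3.77 ± 0.09 and -6.60 ± 0.11, adjusted p = 4.1e-23 and 6.1e-26).

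**Figure D5:**
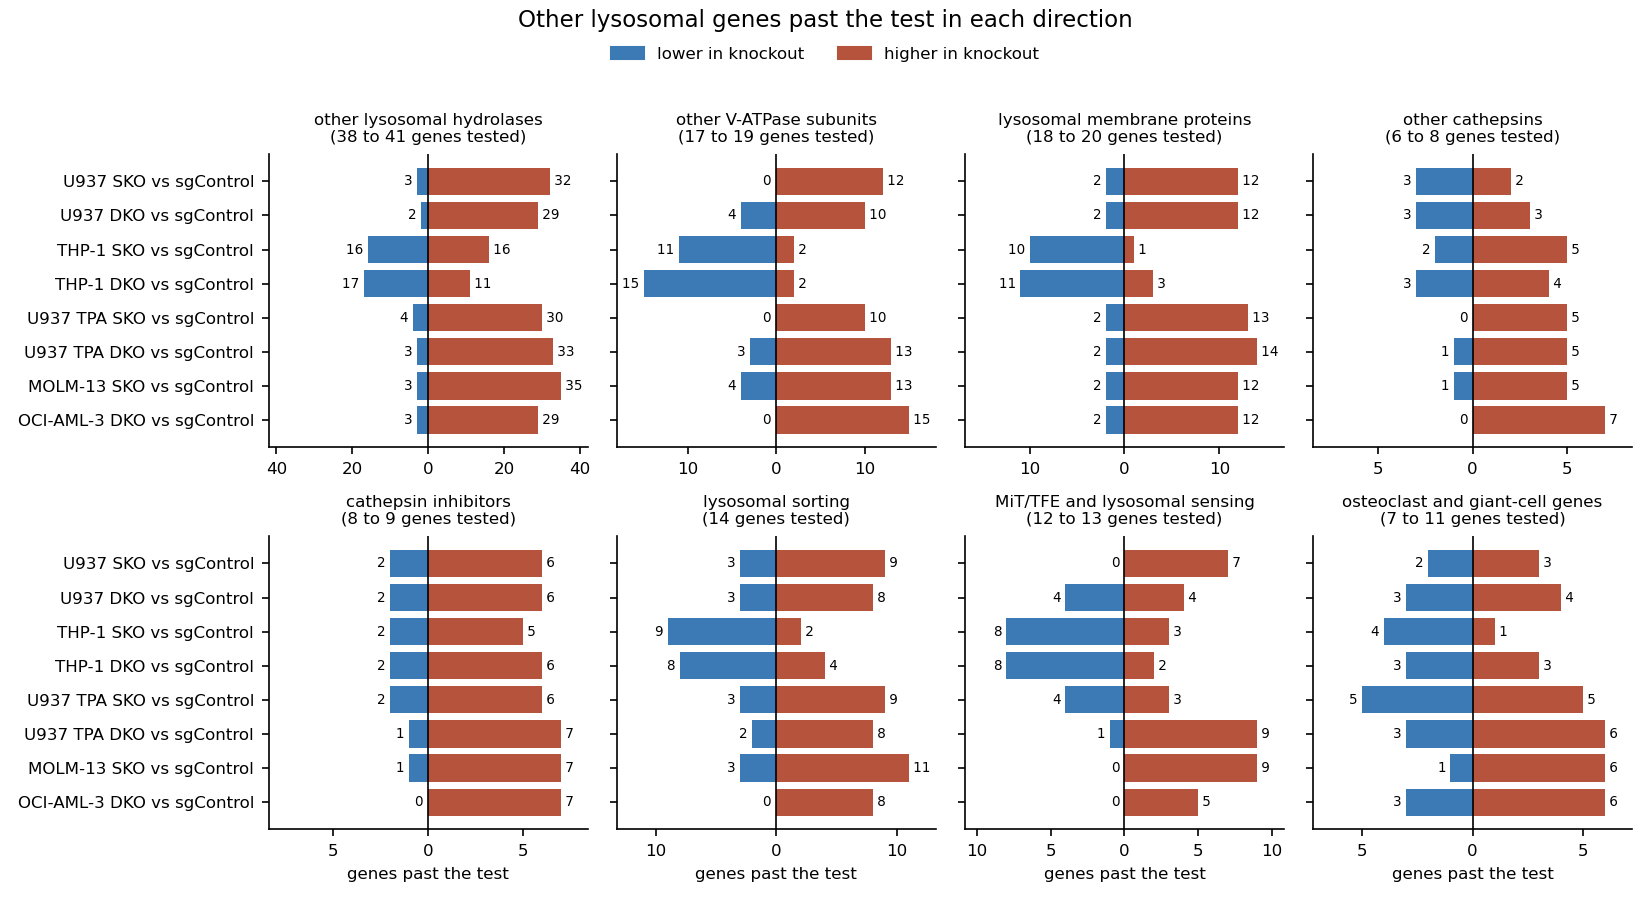
Number of genes of each lysosomal list that were lower (left bars) or higher (right bars) in each knockout group than in sgControl, past the test. In THP-1 the lower genes outnumber the higher ones for the V-ATPase, membrane and sorting lists, and in the other lines the higher genes of these 3 lists outnumber the lower.

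Across the 13 group means, the patterns of the members were described by Pearson's r of log2 levels, over 13473 genes with a mean of at least 1 CPM; the groups share controls and libraries, and r is given with no test. ATP6V0D2 was most like CCL7 (r = 0.988), LINC00702 (0.985) and AQP9 (0.985). CTSB was most like MYO9B (0.981), SCG5 (0.978) and ARID3B (0.973), and CTSL like SAMHD1 (0.977), TSPAN31 (0.942) and ZSCAN20 (0.942). CTSD was most like CCPG1 (0.972), DHDDS (0.970) and ASAH1 (0.968), a lysosomal ceramidase. ATP6V0D1 was most like RILP (0.941), PSAP (0.938) and FKBP15 (0.936), and LAMP1 like PEPD (0.951), M6PR (0.936) and CIB1 (0.931). CTSK was most like FBXL20 (0.958), CTSS like DDX60L (0.966), and CTSZ like HEXA (0.871), a lysosomal hexosaminidase subunit. LYZ had the weakest partner, ZKSCAN4 (0.855). Among the members themselves, ATP6V0D2 and CTSB were closest (0.945), then CTSD and LAMP1 (0.853), and CTSD and CTSL were farthest apart (-0.645).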

How the data were processed

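Poly(A) RNA of 35 libraries in 13 groups was sequenced, and the authors deposited raw read counts per gene in 2 tables, with no normalization. The submitters' processing notes name fastp 0.23.4, STAR 2.7.11b and Subread 2.0.6, and the genome build hg38. Per the file header of the table of untreated U937 and THP-1, featureCounts 2.0.6 counted against GENCODE 38 by gene name without using strand, leaving out multi-mapped reads and reads shared by genes, and counting the mates of a pair singly. The library kit marks strand, so antisense reads are in these counts. The counting settings of the other table, which holds OCI-AML-3, MOLM-13 and the TPA-treated U937 libraries, are not given in the sources used here. No row lacked a gene name.

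From these counts, edgeR 4.0.16 in R 4.3.3 (with limma 3.58.1) filtered low counts (filterByExpr), scaled by TMM and ran the quasi-likelihood test, 1 fit per line and treatment, with 1 joint fit over U937 with and without TPA and 1 over U937 and THP-1 for the differences between effects. Alternatives covered other scalings and tests, no filter, a replicate block, other libraries in the fit and each library left out. P-values were adjusted by Benjamini and Hochberg over all genes tested, with a threshold of 0.05. DESeq2 1.42.0 served as an alternative. The scripts were tested on simulated data. Levels per kb divide by the deposited exon length less the bases shared with another gene's exons. Ratios to groups of 1 to 3 reads carry an exact 95% interval that covers counting error only, and a group at 0 is set to a floor of 3 reads. That interval takes reads as independent and is too narrow where mates of a pair were counted singly. The members and gene lists were chosen with earlier results of these data known. Genes named from a list were taken from the 2 with the largest change in each direction past the test, per comparison. Not every such gene is printed, so those printed do not show both ends of each list. For each member up to 3 genes of the highest Pearson's r over groups are named. No replicate pair agreed within sampling noise (chi-square per degree of freedom 2.97 to 11.7 in 31 pairs). Same-numbered replicates across groups did not deviate together: 0 of 31 correlations exceeded 0.1, so the numbers do not pair the samples.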

Additional observations from a re-analysis of the deposited data

Results flagged for a closer look

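The results listed here are genes whose knockout effect differed, by the test of the difference itself (edgeR's quasi-likelihood test, adjusted over all genes), between TPA-treated and untreated U937 or between U937 and THP-1. All values are differences of log2 fold changes, and a larger effect is a more positive one. SKO and DKO share their sgControl libraries, and TPA-treated libraries stand in another deposited table.

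The DKO effect was larger with TPA for CTSB (2.12), CTSZ (1.10), CTSS (0.97), LAMP1 (0.70) and ATP6V0D1 (0.50). It was smaller with TPA for LYZ (-2.48), CTSK (-1.52), CTSD (-0.67) and ATP6V0D2 (-1.67). The ATP6V0D2 value rests on 2 reads in untreated sgControl. Its call (adjusted p = 0.049) was lost in 10 of the 12 refits that left out a library, at -1.13 without untreated sgControl replicate 1 and -1.12 without replicate 2, while the fitted value without replicate 3, which leaves the control at 0 reads, was -4.27 (adjusted p = 0.0053) and is no bound. CTSL had a fitted difference of 10.48, which depends on how 0 reads in untreated DKO are treated and is no bound.

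The SKO effect was larger with TPA for CTSB (0.61). It was smaller for LYZ (-2.52), CTSK (-1.72), CTSD (-1.58), ATP6V0D1 (-0.73), CTSS (-0.46) and LAMP1 (-0.24). For LYZ the effect itself had the opposite sign with TPA, at -1.96 for DKO and -1.70 for SKO, against 0.54 and 0.84 without it. The ATP6V0D1 difference was positive for DKO and negative for SKO, although both knockouts were higher than sgControl with and without TPA.

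Between the lines, the SKO effect was larger in U937 than in THP-1 for CTSL (2.22), CTSD (2.20), CTSB (1.57), CTSS (1.5), ATP6V0D1 (1.47) and LAMP1 (0.38), and smaller for LYZ (-0.70). The CTSL value rests on 22 reads in U937 SKO and 8 in sgControl, and was 1.43 without U937 SKO replicate 1 (adjusted p = 0.12). The DKO effect was larger in U937 for CTSD (2.7), ATP6V0D1 (1.52), CTSS (1.25), CTSB (0.91), LAMP1 (0.53) and CTSZ (0.26), and smaller for LYZ (-1.90). The CTSZ call was lost without U937 sgControl replicate 3 (0.13, adjusted p = 0.069), and the value was 0.17, 0.16 and 0.15 without DKO replicates 1, 2 and 3. CTSD, CTSS and ATP6V0D1 were higher than sgControl in both U937 knockouts and lower in both THP-1 knockouts, with the limit given above for CTSD in THP-1 SKO. Library run, clone and medium also differ between the lines, and their part was not tested.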

How the results depend on the processing

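Of 156 calls on single members, 146 held under every alternative, and 2090 of 2160 alternative values kept the direction and side of the threshold. The counts were 170 of 176 for DESeq2's Wald test, 172 of 176 for DESeq2 size factors, 169 of 176 without a filter on low counts, 153 of 154 with the compared groups alone in the fit, and 1209 of 1256 with a library left out. A term for a code in the names of some U937 libraries, chosen after seeing the data, changed none of 27. The replicate block kept 171 of 176. The CTSK response to TPA was 0.50 in SKO and 0.69 in DKO and missed the threshold, and the CTSD response in SKO (-0.17) passed it. In that fit treated and untreated libraries had separate replicate terms, so a response to TPA was fitted at replicate 1 of each. These response values therefore do not show how blocking affects the mean response. CTSZ in OCI-AML-3 DKO (0.12) and the ATP6V0D2 difference of DKO effects (-1.66) missed the threshold with the block. The ATP6V0D2 difference also missed it with DESeq2 size factors (-1.61, adjusted p = 0.060), DESeq2's Wald test (-1.86, adjusted p = 0.12), no filter (-1.68, adjusted p = 0.082) and the compared groups alone (-1.70, adjusted p = 0.051). CTSK in TPA-treated SKO missed it with the Wald test (adjusted p = 0.052) and no filter (0.077). CTSZ in OCI-AML-3 DKO missed it with DESeq2 size factors (0.058), the Wald test (0.057) and no filter (0.15). Without a filter, ATP6V0D2 in OCI-AML-3 DKO (0.079) and CTSS between THP-1 DKO and SKO (0.10) missed it too. Values that changed sign had missed the test: CTSB in THP-1 DKO (-0.0080 without a filter, -0.0283 to 0.027 with a library left out), CTSK in TPA-treated DKO (0.0064 with DESeq2 size factors, 0.0068 with DESeq2, -0.20 to 0.0399 with a library left out), ATP6V0D2 in THP-1 SKO (-3.43 to 0.98), the SKO differences with TPA of ATP6V0D2 (-2.08 to 1.07) and CTSZ (-0.0008 to 0.0606), and between lines of CTSK (-0.14 to 0.41) and CTSZ (-0.0364 to 0.0866). The MiT/TFE list gave 6 to 11 genes past the test in THP-1 SKO and 3 to 5 in OCI-AML-3 DKO with a library left out, and 3 there without a filter, and the giant-cell list 2 to 5 (4 with all libraries) for the SKO difference with TPA, 2 without U937 SKO replicate 1. The cause was not tested. In 2-library groups, leaving 1 out assumes that the lone library varies like the others. Other scalings moved group levels by factors of 0.900 to 1.13. Fitted ATP6V0D2 values of a group at 0 reads depend on how zeros are treated. Depth limits ATP6V0D2 without TPA and CTSL in untreated U937.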
